A study of Homo sapiens with 9 samples.

Results

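The nuclear genes for the proteins of the mitochondrial ribosome were examined in a SLAM-Seq experiment. The cells were MCF10A, a line of human mammary epithelium that is not transformed. They were chosen by name, as every gene of the deposited table whose symbol reads MRPL or MRPS followed by a number and, in some cases, 1 letter. This gave 77 genes of the 25801 genes in the table. All cells were JUN knockout (KO) cells that carried JUN fused to an auxin-inducible degron (JUN-AID) and TIR1, the receptor through which indole-3-acetic acid (IAA) leads to degradation of the fusion. The unlabelled control received no 4-thiouridine (no 4sU) and is listed with a pretreatment of 1 h without IAA. Both labelled groups were given 4sU at 100 µM during the last 1 h. In the preceding 1 h they were treated either with the solvent DMSO or with IAA at 100 µM. The labels give 3 replicates for each of the 3 groups, and the p-values below measure the spread between these libraries. JUN-AID is lost as a protein, so that mRNA values cannot show its loss, and the fusion was expressed from a vector in knockout cells.

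The mitochondrial ribosome translates the few proteins that the mitochondrial genome still encodes, all of them subunits of the respiratory chain and the ATP synthase. Its own proteins are encoded in the nucleus, made in the cytosol and imported. Many descend from proteins of the bacterial ribosome, whereas others were added during the evolution of mitochondria. In SLAM-Seq, newly made RNA takes up 4sU, and alkylated 4sU is sequenced as C where T would stand, so the T>C conversion rate of an mRNA grows with the share of its molecules that are newly made. Short-lived mRNAs therefore reach higher rates than stable ones within a short pulse.

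Library totals were between 18997637 and 24014195 reads. The columns of IAA with 4sU were identical throughout, so they stand for 1 library whose replicate number is unknown, which leaves no test for IAA. Of the epithelial markers, KRT5 lay between 519 and 709 CPM and EPCAM between 112 and 156 CPM, while KRT14 reached only 3.63 to 10.6 CPM. Replicates with the same number deviated together in total mRNA but not in the conversion rate.

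The 77 genes comprised 51 of the large subunit and 26 of the small subunit, and lay on 21 chromosomes. Of these, 46 have a bacterial counterpart and 31 are found in mitochondria only. MRPS18A and MRPS30 carry names of the small subunit but sit in the large one, and they were counted there. Pseudogenes named after them exist for 35 members (74 pseudogenes in all), and reads of such copies could be assigned to either. At the 3′ end, 9 members overlap another gene on the same strand and 20 overlap one on the opposite strand.

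Short sequence elements were found in part of the promoters of these genes. RefSeq windows of GRCh38.p14, from 250 bases before the transcription start to 50 after it, existed for 69 of the 77 genes and gave 85 windows. The letters CCGGAAG, the core bound by ETS factors such as GABP, occurred on either strand in 43.5% of the member genes, against 12.2% of all genes with a window and 23.3% of the genes tested for total mRNA. AAGATGGC, the core of the YY1 element, occurred in 30.4% of the member genes, against 3.52% of all genes and 6.77% of the genes tested. In cytosolic ribosomal protein genes the ETS letters occurred in 34.9% and the YY1 letters in 11.1%, and in nuclear-encoded respiratory chain genes in 29.9% and 17.9%. GABP and YY1 are known regulators of nuclear genes for mitochondrial proteins. The differences in these shares were not tested.

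The YY1 letters lay after the start in most members that held them. In 16 of the 21 members that held them, they read along the gene strand and began 6 to 35 bases after the start. The window itself ends 50 bases after the start. In the other members with the YY1 letters they began before it, as at -35 in MRPL36 and -222 in MRPL32. These letters include an ATG, so they can overlap a start codon. The ETS letters were found in 30 members, and in 25 of these they began within a window from -60 to 10 bases around the start. Positions of either element were not counted over all promoters. Both elements occurred in 8 members and none of the searched elements in 24. The palindromic NRF1 core was present in 1.45% of member genes and the TATA letters TATAAA in 4.35%, against 1.52% and 14.0% of all genes and 2.74% and 8.42% of the genes tested. A promoter without a match says only that these letters are not in the window.

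Promoters are printed for 6 members to show how these elements lie in genes from both ends of the range of conversion rates. The gene strand is given 5′ to 3′, and capitals mark the ETS letters (CCGGAAG, or CTTCCGG on the opposite strand) or the YY1 letters (AAGATGGC, or GCCATCTT on the opposite strand). MRPL53, MRPL36 and MRPL41 had high rates and MRPL16, MRPL45 and MRPL46 low rates.
MRPL53, chr2:74472631-74472930, minus strand: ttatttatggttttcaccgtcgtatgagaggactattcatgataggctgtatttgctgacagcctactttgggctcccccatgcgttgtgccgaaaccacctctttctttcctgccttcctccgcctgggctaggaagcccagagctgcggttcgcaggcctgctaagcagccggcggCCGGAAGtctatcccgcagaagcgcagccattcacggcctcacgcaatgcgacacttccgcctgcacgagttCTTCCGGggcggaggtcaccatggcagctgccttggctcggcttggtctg
MRPL36, chr5:1799788-1800087, minus strand: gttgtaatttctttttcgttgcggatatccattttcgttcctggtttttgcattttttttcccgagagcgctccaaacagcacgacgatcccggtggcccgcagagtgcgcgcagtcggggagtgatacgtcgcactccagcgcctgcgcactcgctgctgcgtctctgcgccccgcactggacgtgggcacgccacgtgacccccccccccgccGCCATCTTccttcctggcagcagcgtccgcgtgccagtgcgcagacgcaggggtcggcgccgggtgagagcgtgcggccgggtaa
MRPL41, chr9:137551629-137551928, plus strand: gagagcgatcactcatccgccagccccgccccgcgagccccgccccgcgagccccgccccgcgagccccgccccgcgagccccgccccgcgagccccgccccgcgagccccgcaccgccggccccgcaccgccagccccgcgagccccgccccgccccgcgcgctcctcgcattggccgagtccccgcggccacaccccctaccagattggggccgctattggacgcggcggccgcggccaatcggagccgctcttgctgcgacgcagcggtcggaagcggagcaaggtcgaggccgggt
MRPL16, chr11:59810729-59811028, minus strand: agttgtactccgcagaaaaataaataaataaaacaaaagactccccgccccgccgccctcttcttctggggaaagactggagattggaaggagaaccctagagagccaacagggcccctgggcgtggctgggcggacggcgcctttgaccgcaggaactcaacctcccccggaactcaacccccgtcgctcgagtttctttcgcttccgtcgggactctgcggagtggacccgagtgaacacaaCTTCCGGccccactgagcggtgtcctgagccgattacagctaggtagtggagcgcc
MRPL45, chr17:38296918-38297217, plus strand: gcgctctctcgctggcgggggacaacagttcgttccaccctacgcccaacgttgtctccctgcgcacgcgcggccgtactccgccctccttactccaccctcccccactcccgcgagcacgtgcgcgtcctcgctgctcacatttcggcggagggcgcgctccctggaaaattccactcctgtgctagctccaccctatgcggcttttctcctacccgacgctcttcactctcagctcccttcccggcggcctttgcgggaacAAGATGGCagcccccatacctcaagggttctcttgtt
MRPL46, chr15:88467339-88467638, minus strand: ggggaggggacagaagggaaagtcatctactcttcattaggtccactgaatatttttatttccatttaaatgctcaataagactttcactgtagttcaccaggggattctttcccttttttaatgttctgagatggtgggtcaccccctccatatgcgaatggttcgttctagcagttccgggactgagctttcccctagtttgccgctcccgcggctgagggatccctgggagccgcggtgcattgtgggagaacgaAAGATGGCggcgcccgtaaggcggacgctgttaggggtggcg

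Both elements occurred at both ends of the range. The ETS letters were in the MRPL53 promoter, where they began -72 and 0 bases from the start, and in that of MRPL16, where they began at -6. The YY1 letters began at 8 in MRPL46, at 13 in MRPL45 and, on the opposite strand, at -35 in MRPL36. MRPL41 held neither. Over the members tested, the median conversion rate with DMSO and 4sU was 0.186% in the 21 genes with the YY1 letters and 0.19% in the 46 without. It was 0.182% in the 28 genes with the ETS letters and 0.213% in the 39 without. Median total mRNA, in the interval with most reads of each gene, was 49.8 CPM with the YY1 letters and 43.7 CPM without, and 49.5 CPM with the ETS letters and 40.5 CPM without. These medians are descriptions without a test.

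The first comparison asked which of these mRNAs took up label during the pulse, with the unlabelled libraries as background. Enough reads (200 on average, and a rate above 0 in 3 of 6 libraries) were present for 72 of the 77 genes. MRPL2, MRPL23, MRPL28, MRPS28 and MRPS31 fell below this limit. The conversion rate rose in 52 of the 72 members (72.2%, limma, adjusted p under 0.05) and fell in 0. Over all 7170 genes tested it rose in 61.4% and fell in 0.0697%. At an unadjusted p under 0.05, 54 members were higher and 0 lower, beside 4874 and 8 of 7170 genes. Members passed the filter partly through their labelled libraries, so the count covers the members tested only. The count was 28, 29 and 32 of 72 without replicates 1, 2 and 3, beside 2637, 3116 and 3031 of all 7170 genes. It was 16 of 77 with no filter, beside 3361 of 25801 genes. In the interval with most reads it was 55 of 72, beside 4512 of 6807 genes.

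The median rate of the members was 0.0552%, 0.0477% and 0.0590% in the unlabelled libraries, and 0.203%, 0.179% and 0.178% with DMSO and 4sU. All labelled libraries lay above all unlabelled ones. The mean of the labelled medians was 0.186% ± 0.0143 (SD, n = 3). In single genes, every labelled rate exceeded every unlabelled rate in 56 of the 72 members, beside 70.8% of all genes tested. The median log2 change was 1.17 in the members and 1.16 in all genes.

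**Figure D1:**
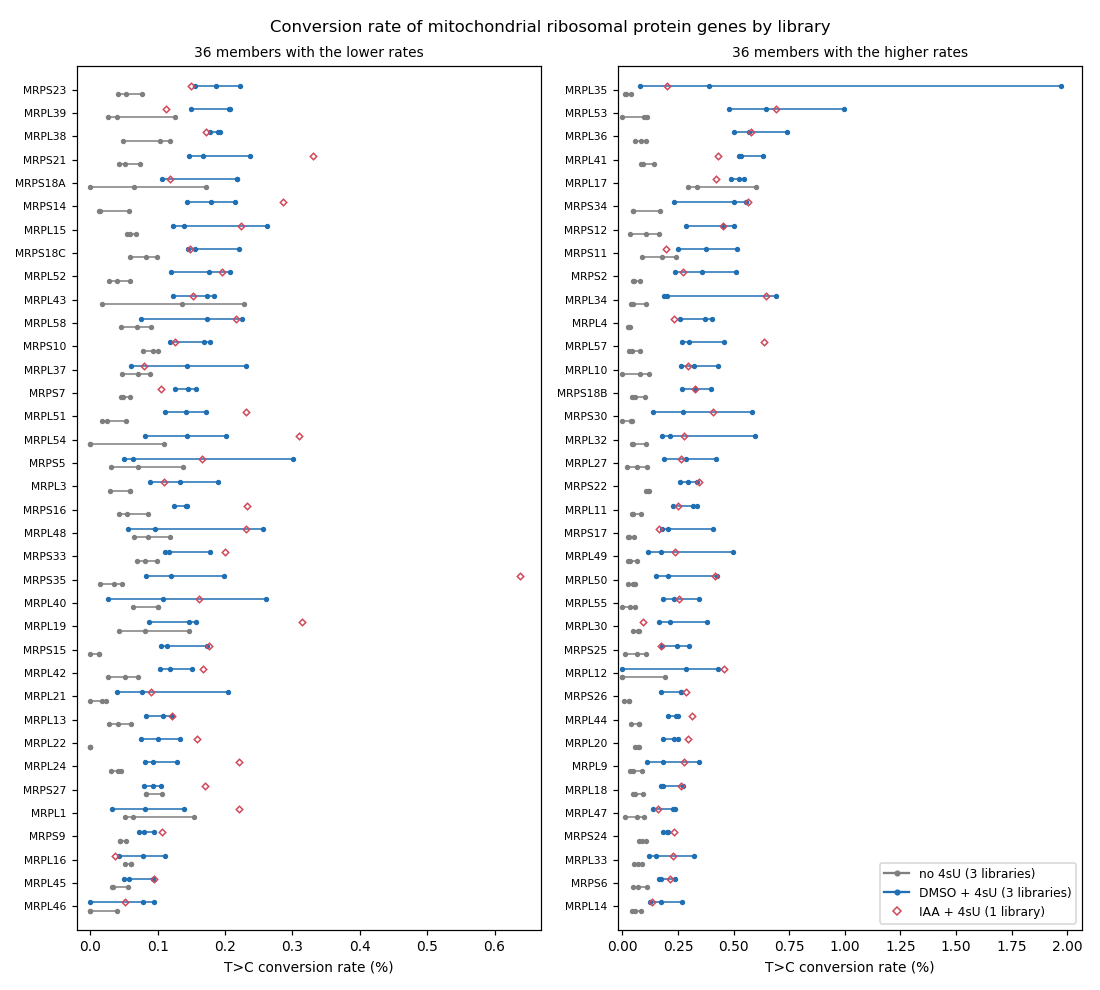
T>C conversion rate in percent (horizontal axes, which differ between panels) of the 72 members tested, ordered by the mean with DMSO and 4sU. Points are libraries and lines their range, in grey without 4sU and in blue with DMSO and 4sU, and open red diamonds show the 1 IAA library. Most blue points lie to the right of the grey ones, and MRPL35 has 1 library at 1.97%.

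MRPL53, a protein of the large subunit that bacteria lack, was among the most strongly labelled members. Its rate was 0.111%, 0.0962% and 0% without 4sU and 0.997%, 0.646% and 0.478% with DMSO and 4sU. The groups did not overlap, and the log2 change was 2.78 ± 0.52 (SE, limma, adjusted p = 0.00485). The gene lies at chr2:74699109-74699814 in GRCh37, and CCDC142 overlaps its 3′ end on the same strand. Reads from that gene cannot be told apart from those of MRPL53.

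MRPL36, a small protein of the large subunit with a bacterial counterpart, lies at chr5:1798499-1801480. Its rate rose from 0.0582%, 0.0821% and 0.108% to 0.572%, 0.739% and 0.501%, without overlap and with little spread among labelled libraries. The log2 change was 2.30 ± 0.29 (SE, limma, adjusted p = 0.00128). MRPL41, a mitochondria-specific protein of the large subunit at chr9:140446331-140447007, rose from 0.0855%, 0.143% and 0.0919% to 0.535%, 0.632% and 0.522%. Its log2 change was 1.98 ± 0.28 (SE, limma, adjusted p = 0.00177), and its measured interval matched the annotated 3′ UTR.

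MRPL35 and MRPL17 also had high mean rates, but with other patterns. The rates of MRPL35 were 1.97%, 0.0789% and 0.387% with DMSO and 4sU, so that replicate 1 set the mean of 0.812% ± 1.01 (SD, n = 3). An interval of only 22 reads stood at 4.55% in that library and at 0% in the others. The log2 change was 2.75 ± 0.90 (SE, limma, adjusted p = 0.0339), and this call was lost without replicate 1 or 3. In its interval with most reads MRPL35 had 0.712%, 0.135% and 0.472%.

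MRPL17, a bacterial-type protein of the large subunit at chr11:6701616-6704571, already stood at 0.603%, 0.296% and 0.335% without 4sU. With DMSO and 4sU it had 0.546%, 0.525% and 0.486%, inside the unlabelled range. The log2 change was 0.36 ± 0.30 (SE, limma, adjusted p = 0.304). Its high rate was thus present without label.

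At the other end, MRPL46 had 0%, 0% and 0.0399% without 4sU and 0.0941%, 0.0778% and 0% with it, and the groups overlapped. MRPL45, which helps to hold the mitochondrial ribosome at the inner membrane, had 0.034%, 0.0567% and 0.0326% and then 0.0508%, 0.0575% and 0.0933%. MRPL16, a bacterial-type protein of the large subunit, had 0.0602%, 0.0603% and 0.0522% and then 0.0777%, 0.0433% and 0.111%. None of the 3 changes passed the test, with adjusted p of 0.244, 0.256 and 0.495 (limma).

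MRPS9, whose bacterial counterpart reaches towards the P site, had 0.0436%, 0.0436% and 0.0534% without 4sU and 0.0802%, 0.0726% and 0.095% with it. Its groups did not overlap, although the test was not passed (log2 change 0.45 ± 0.22 SE, limma, adjusted p = 0.105). MRPL1, the protein of the mobile L1 stalk, had 0.0521%, 0.0631% and 0.154% and then 0.139%, 0.0331% and 0.0814%. It was the 1 member of 72 with a negative log2 change (-0.06 ± 0.40 SE, limma, adjusted p = 0.892), and the sign turned when replicate 2 or replicate 3 was left out. The remaining members that did not pass were MRPL12, MRPL19, MRPL37, MRPL40, MRPL43, MRPL48, MRPL54, MRPL58, MRPS5, MRPS10, MRPS11, MRPS18A, MRPS27 and MRPS33. A p above the threshold does not show that these mRNAs took up no label. The mean of MRPL43 included an interval at 0.568% and 0.355% in unlabelled replicates 2 and 3, with 26 and 18 reads. In its interval with most reads MRPL43 had 0.0447%, 0.0706% and 0.0255% without 4sU. With DMSO and 4sU that interval had 0.131%, 0.263% and 0.271%, without overlap.

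Among members with known roles, the proteins of the stalk and the GTPase centre, which recruit translation factors, differed in certainty. MRPL11, at the base of the stalk, rose from 0.048%, 0.0415% and 0.0844% to 0.316%, 0.228% and 0.335% (log2 change 1.67 ± 0.28 SE, limma, adjusted p = 0.00313). MRPL10, which anchors the stalk, rose from 0.0782%, 0% and 0.118% to 0.43%, 0.264% and 0.324% (1.90 ± 0.48 SE, limma, adjusted p = 0.0135), a call lost without replicate 1. MRPL12, the stalk protein itself, had 0%, 0% and 0.193% and then 0%, 0.431% and 0.284%, and these groups overlapped. MRPL12 had only 212 reads on average, and its change did not pass the test (limma, adjusted p = 0.279).

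MRPS12, a protein of the decoding centre, rose from 0.108%, 0.165% and 0.0331% to 0.284%, 0.503% and 0.453% (log2 change 1.68 ± 0.42 SE, limma, adjusted p = 0.0136), a call lost without replicate 1 or 3. MRPS30 rose from 0%, 0.0372% and 0.0424% to 0.585%, 0.272% and 0.136% (2.19 ± 0.49 SE, limma, adjusted p = 0.00896). MRPL58, a peptidyl-tRNA hydrolase that rescues stalled ribosomes, had 0.0904%, 0.0694% and 0.0458% and then 0.174%, 0.225% and 0.0749%. The groups of MRPL58 overlapped and the test was not passed (limma, adjusted p = 0.0941).

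MRPS18A, MRPS18B and MRPS18C are paralogs related to 1 bacterial protein. MRPS18C was counted as its counterpart, and the other members of the trio, which occupy other sites, as found in mitochondria only. MRPS18B rose from 0.1%, 0.0446% and 0.058% to 0.326%, 0.401% and 0.267% (log2 change 1.71 ± 0.30 SE, limma, adjusted p = 0.00365). MRPS18C rose from 0.0593%, 0.0985% and 0.0832% to 0.145%, 0.156% and 0.221% (0.78 ± 0.26 SE, limma, adjusted p = 0.0353). MRPS18A had 0.172%, 0.0653% and 0% and then 0.218%, 0.217% and 0.106%, with overlapping groups (limma, adjusted p = 0.128). The labelled rates of MRPS18B all lay above those of MRPS18A and MRPS18C, a difference that was not tested. The call of MRPS18C was lost without any 1 of the replicates. ABRAXAS1 and RSPH9 overlap the 3′ ends of MRPS18C and MRPS18A on the opposite strand.

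The genes MRPL46 and MRPS11 start 63 bases apart on opposite strands of chromosome 15. Their labelled rates were 0.0941%, 0.0778% and 0% for MRPL46 and 0.518%, 0.249% and 0.377% for MRPS11, without overlap. Without 4sU, MRPS11 had 0.0888%, 0.18% and 0.239%. The log2 change of MRPS11 was 0.99 ± 0.39 (SE, limma, adjusted p = 0.0609), so neither gene of the pair passed the test. This pair was chosen after its values were seen.

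The members were close to the middle of the transcriptome in their conversion rate. Their mean rates with DMSO and 4sU ran from 0.0573% to 0.812%, and 42 of the 72 lay below the median of all genes tested. The median member stood at percentile 43.0 of the genes tested. The subunits did not stand apart, with means of the labelled medians of 0.186% ± 0.0141 for the small and 0.189% ± 0.016 for the large subunit (SD, n = 3). Members with a bacterial counterpart had 0.188% ± 0.0238 and members found in mitochondria only 0.188% ± 0.0127 (SD, n = 3).

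Other gene lists gave context. The cytosolic ribosomal protein genes, of which 67 were tested, had median rates of 0.178%, 0.150% and 0.133% with DMSO and 4sU, and the 75 nuclear-encoded respiratory chain genes 0.152%, 0.116% and 0.111%. The median of the mitochondrial ribosomal protein genes was higher than both in each of the 3 labelled libraries of DMSO and in the IAA library. It was below the median of all genes (0.241%, 0.182% and 0.182%) in each DMSO library, by little in replicates 2 and 3. In the IAA library it was 0.224%, against 0.222% for all genes. The conversion rate rose in 42 of 67 cytosolic ribosomal protein genes (62.7%) and in 28 of 75 respiratory chain genes (37.3%). The differences between lists were not tested.

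**Figure D2:**
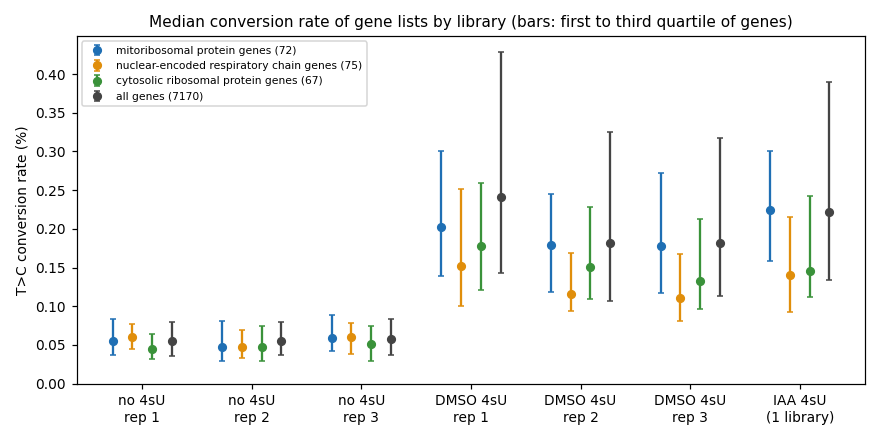
Median T>C conversion rate in percent (vertical axis) of 4 gene lists in each library, with bars from the first to the third quartile of the genes. Numbers of genes stand in the legend. The medians of the lists lie between 0.0453% and 0.0608% without 4sU, and with 4sU the members (blue) lie above the respiratory chain (orange) and the cytosolic ribosomal protein genes (green).

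Factors that assemble the mitochondrial ribosome were also measured, and 13 of the 22 listed were tested. Their median rate was 0.497%, 0.370% and 0.372% with DMSO and 4sU, above the median of the members in each library, with a first quartile of 0.224%, 0.171% and 0.132%. METTL17, with 0.0932%, 0.101% and 0.126%, lay below the median of the members. The rate rose in 9 of the 13, beside 61.4% of all genes tested. In the list of subunits that carry other names 4 of 6 rose, among them AURKAIP1 and OXA1L. OXA1L is an insertase of the inner membrane and not itself a subunit. DAP3 did not pass the test (limma, adjusted p = 0.0508). Of the mitochondrial translation factors 4 of 7 rose. In the list of mitochondrial transcription and its nuclear regulators 7 of 8 rose. These shares were not tested against that of all genes. These lists were set with earlier results of these data known.

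Conversion rates of the members were only moderately repeatable. Spearman's rho across the 72 members was 0.46 to 0.64 between the labelled DMSO libraries, and 0.56 to 0.61 across all genes. The rate went with lower total mRNA across members (rho = -0.33 in the interval with most reads), as across all genes (rho = -0.27). These are descriptions across genes of the same libraries, which share the read depth. The intervals measured were short, with a median of 396 bases against 1287 for all genes tested, and 58 of 72 members lay below that median.

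Total mRNA was measured from the 3′ ends, without scaling by length. Intervals of a gene can overlap and hold the same reads, and in 17 of the 77 members the sum over intervals was more than 1.5 times the interval with most reads. Levels are therefore given for that interval. With DMSO and 4sU the mean levels ran from 3.89 to 152 CPM, with 7 genes under 10 CPM and 7 over 100 CPM.

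MRPL3, near the peptidyl transferase centre, had 129, 175 and 151 CPM, and MRPS24 of the small subunit had 142, 137 and 138 CPM. MRPS21 followed with 141, 129 and 128 CPM. The replicates of these genes overlapped, so that their order is not resolved. MRPL33, a small protein of the large subunit, had 62.8, 117 and 80.1 CPM, and MRPS35 had 87.5, 99.1 and 84.7 CPM. Both had been named for their sums over intervals, which were higher.

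The lowest members in the interval with most reads were MRPL2, MRPS31, MRPL23 and MRPL28. MRPL2, a core protein of the peptidyl transferase region, had 3.85, 4.12 and 3.68 CPM. MRPS31 had 5.68, 6.12 and 5.18 CPM, MRPL23, at the exit of the peptide tunnel, 9.77, 4.21 and 5.28 CPM, and MRPL28 7.94, 4.87 and 8.02 CPM. Every value of these genes lay below every value of MRPL3 and MRPS24, whose proteins belong to the same particle. The genes were picked as lowest and highest by these same values, so this gap follows from the choice. Whether all their transcript ends lie in the measured intervals was not tested. In bulk samples, fewer expressing cells and less RNA per cell cannot be told apart.

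The second comparison asked whether the pulse changed the amount of these mRNAs, with reads summed over the intervals of a gene. Total mRNA rose in 0 and fell in 0 of the 77 members with DMSO and 4sU against no 4sU (limma, adjusted p under 0.05). Over all 12020 genes tested, 0% rose and 1.57% fell. At an unadjusted p under 0.05, 4 members were higher and 0 lower in limma, beside 362 and 909 of 12020 genes. edgeR and DESeq2 also called 0 members, each with 4 at an unadjusted p. They called 179 and 418 of 12020 genes. With the interval with most reads, limma called 0 members, with 3 at an unadjusted p, beside 187 of 11903 genes called. The log2 change was positive in 67 of 77 members (87.0%), against 56.5% of all genes, with a median of 0.16 against 0.04. Cytosolic ribosomal protein genes had a median of 0.28 and respiratory chain genes of 0.19.

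MRPS27, an RNA-binding protein of the small subunit, and MRPS15 had the largest positive log2 changes in the limma fit over all 6 libraries. The values of MRPS27 were 27.9, 68.6 and 58.9 CPM without 4sU and 95.6, 76.0 and 72.4 CPM with DMSO and 4sU. The groups did not overlap, and the log2 change was 0.70 ± 0.32 (SE, limma, adjusted p = 0.477). Without replicate 1, whose unlabelled library had 27.9 CPM, the log2 change of MRPS27 was 0.11. MRPS15 had 50.3, 46.9 and 30.3 CPM and then 92.9, 61.1 and 52.1 CPM (log2 change 0.64 ± 0.24 SE, limma, adjusted p = 0.368). The members with an unadjusted p under 0.05 were MRPS15, MRPL22 (log2 change 0.40), MRPS18C (0.43) and MRPS21 (0.34). All CPM with DMSO and 4sU lay above all CPM without 4sU in 14 members, or 14 of 77, beside 9.98% of all genes, and all lay below in 0 members, beside 9.28% of all genes. MRPS15, MRPS27, MRPL22 and MRPS21 were named after their values were seen.

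Among the related lists, total mRNA fell in 1 of 12 genes of mitochondrial transcription and its nuclear regulators. It also fell in 1 of 79 cytosolic ribosomal protein genes. In each of the other related lists 0 fell, beside 1.57% of all genes tested. MYC, which is known to regulate many genes of mitochondrial biogenesis, went from 101, 206 and 230 CPM to 21.8, 22.0 and 21.7 CPM (log2 change -2.92 ± 0.30 SE, limma, adjusted p = 0.00129). Its value with IAA was 23.4 CPM. RPL7, a cytosolic ribosomal protein gene with several pseudogenes, went from 4.40, 4.51 and 3.74 CPM to 1.13, 1.33 and 1.24 CPM. These values were low beside the medians of 376, 240 and 235 CPM of its list with DMSO and 4sU (67 genes). The mitochondrial ribosomal protein genes did not pass the test, and a link to the fall of MYC was not tested.

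The third comparison was that of IAA with DMSO in labelled cells, which asks what the loss of JUN protein changed. With 1 IAA library it has no test, and a member was counted as changed when it lay at least 1 log2 unit from the DMSO mean and outside the DMSO range. By this rule the centred conversion rate of 1 of the 72 members was higher with IAA and that of 1 was lower, beside 5.48% and 6.01% of all genes. When each DMSO library was set against the other labelled libraries in the same way, it gave 3 members higher and 3 to 5 lower. Over all genes, these shares were 5.57% to 6.15% higher and 5.50% to 7.54% lower. Without DMSO replicate 1, 2 or 3 the IAA library gave 3, 4 and 3 members higher, beside 517, 462 and 500 of 7166 genes. The number lower became 2 without DMSO replicate 2, beside 502 of 7166 genes. The median difference was 0.05 in members and -0.01 in all genes. The median rate of the members in the IAA library, without centring, was 0.224%, above the DMSO libraries. That of all genes was 0.222% with IAA, against 0.241%, 0.182% and 0.182% with DMSO.

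The higher gene was MRPS35, a mitochondria-specific protein of the small subunit. Its rate was 0.637% with IAA, against 0.199%, 0.0833% and 0.119% with DMSO (centred log2 difference 1.83). The value came from an interval of 10 bases with 108 reads, which stood at 1.37% with IAA and at 0% in the DMSO libraries. In the interval with most reads MRPS35 had 0.313% with IAA and 0.304%, 0.127% and 0.199% with DMSO. There it was not counted as changed.

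The lower gene was MRPL30, a bacterial-type protein of the large subunit. It had 0.0915% with IAA, against 0.213%, 0.381% and 0.164% with DMSO and 0.0478%, 0.0719% and 0.0765% without 4sU (centred log2 difference -1.16). The intervals of MRPL30 had 0.0928% and 0.0903% in the IAA library. They can hold the same reads, so their likeness is not separate support. Its total mRNA in the interval with most reads was 54.4 CPM with IAA, inside the DMSO range of 50.5 to 65.4 CPM.

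Total mRNA was counted as higher in 0 and lower in 0 of the 77 members with IAA, beside 0.15% and 0.0666% of all genes. Values with IAA lay above the DMSO range in 15 members and below it in 15, beside 21% and 20.6% of all genes. The median log2 difference was -0.01. Without DMSO replicate 1, 1 member was counted as higher, beside 93 of 12020 genes. For 38 of the 77 members the IAA value was nearest to DMSO replicate 1, as it was for 51.1% of all genes.

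**Figure D3:**
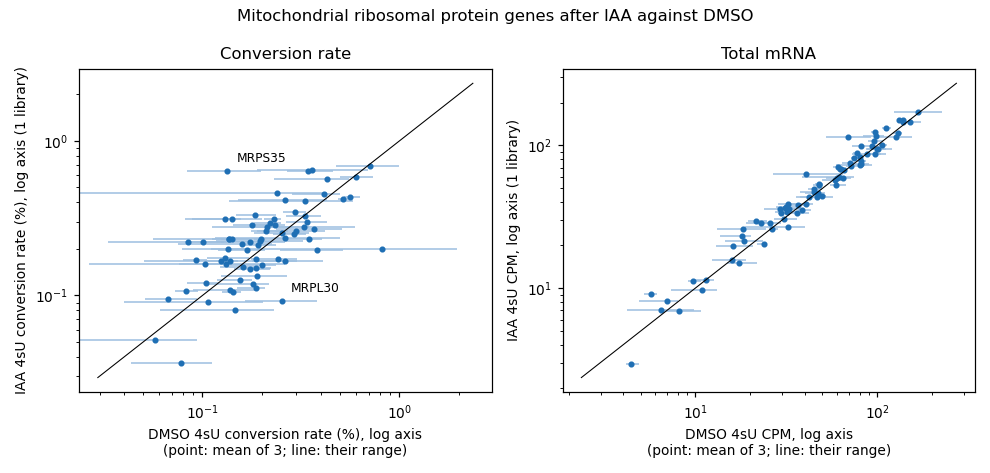
IAA library (vertical axes) against DMSO with 4sU (horizontal axes) for the conversion rate in percent of 72 members (left) and total mRNA in CPM, summed over intervals, of 77 members (right), all on log axes. Points are the means of 3 DMSO libraries, horizontal lines their range (ranges that reach 0 run off the left edge) and the diagonal equality. Rates scatter widely, with MRPS35 at 0.637% and MRPL30 at 0.0915% named, while total mRNA stays close to the diagonal.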

How the data were processed

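Libraries of 3′ mRNA ends (QuantSeq) were processed by the authors with a Nextflow SLAM-Seq pipeline; per the labels' processing notes the build was hg19. The authors deposited 1 table of 56868 rows with, for each 3′ interval and library, the T>C conversion rate, a fraction, and reads scaled to library size. This CPM signal was deposited without background subtraction or replicate pooling, and was a whole multiple of 1 read in 100% of cases (tolerance 0.001), which gave back the reads. RefSeq identifiers matched a gene in 97.7% of rows, by a table of GRCh38.p14. The 149 rows of members held 104 distinct intervals; the rates of a gene's intervals with reads were averaged and reads summed, which can count a read of overlapping intervals more than once. Gene coordinates are those of GENCODE for GRCh37.

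limma (3.58.1, R 4.3.3; trended, robust) was fitted over all genes to log2(rate + 0.0005) and to log2(CPM + 1) with TMM library sizes (at least 10 reads in 3 libraries), with Benjamini-Hochberg adjusted p of 0.05. edgeR (4.0.16) and DESeq2 (1.42.0) on recovered reads were alternatives. For IAA, rates were centred per library on the median, with a rate above 0 in 2 labelled libraries; no test was possible. The fits were tested on simulated data with 200 changed genes. There limma on the rate recovered 52.5% of 4-fold and 98% of 9-fold changes, with 6 false of 111 calls and 8 of 204. A 4-fold change of the rate can thus be missed in that setting. Only 200 of 7042 genes tested at 4-fold were changed there, whereas 61.4% were called higher in the data. The simulated shares therefore need not hold for these data. For total mRNA limma recovered 98.5% of simulated 2-fold changes, with 15 false of 212 calls.

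Correlations of deviations between same-numbered libraries in total mRNA were 0.38, 0.30 and 0.34. For the rate they came to 0.0063, -0.014 and 0.0077. The pairing in total mRNA rests on these data and not on the labels. Members, lists and the rules for named genes (the 5 highest and 5 lowest rates, the 4 highest and 4 lowest CPM, IAA changes, the MRPS18 paralogs and 6 members of known role) were chosen with earlier results of these data known. All per-sample columns were used, 0 being left out.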

Additional observations from a re-analysis of the deposited data

How the results depend on the processing

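The count of members with a higher rate after 4sU, 52 of 72, became 16 of 77 with no filter, beside 3361 of 25801 genes. When 1 replicate number was left out it became 28 to 32 of 72, beside 2637 to 3116 of 7170 genes. The cause of the first was not tested, and the others have fewer libraries. With the replicate block the count was 45 of 72, beside 4015 of 7170 genes. In total mRNA the block left 0 members, beside 195 of 12020 genes. Leaving out replicates 2 and 3 turned the log2 change of MRPL1 from -0.06 to 0.13 and 0.22 (range -0.54 to 0.22 without 1 replicate), and leaving out replicate 3 turned that of MRPL16 from 0.21 to -0.015 (range -0.015 to 0.44). Of the other values of rate changes of single members, 36 lost significance, 1 gained it and 200 did neither. For IAA, the count of members with a higher rate was 1, beside 393 of 7166 genes. It was 4 with a pseudocount of 0.0001 (553 of 7166 genes) and 4 without centring (515 of 7166 genes). It was 0 with the interval with most reads (286 of 6822 genes) and 0 with the read-weighted mean (339 of 7166 genes). Without 1 DMSO library it was 3 to 4 (462 to 517 of 7166 genes). The interval choices were added after seeing the data. So was the interval with most reads for total mRNA, where it left 0 members called. The count with a lower rate was 1, beside 431 of 7166 genes. It was 2 with a pseudocount of 0.0001 (587 of 7166 genes) and 0 with 0.002 (120 of 7166 genes). Without 1 DMSO library it was 1 to 2 (486 to 502 of 7166 genes). Total mRNA with IAA was higher in 0 to 1 members without 1 DMSO library, the 1 being without DMSO replicate 1 (93 of 12020 genes). The median rate, 0.186%, was 0.125% after subtraction of the background. No paired analysis was possible for IAA because its columns are 1 library of unknown number. Members tested had 204 to 3021 reads on average in their interval with most reads, which limits the precision of single rates.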
